A study of Homo sapiens with 4 samples.

Results

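The genes described here are EWSR1 and FLI1, which are joined in the fusion gene of Ewing sarcoma, and 8 further ETS transcription factor genes: ETV1, ETV4, ETV5, ETV6, ETS1, ETS2, ELK1 and GABPA. They were taken by symbol, 10 of the 23228 genes in the count tables, and all 10 were found and passed the filter on low counts. RNA-seq was done on A673, an established Ewing sarcoma cell line grown in DMEM with 10% fetal bovine serum. The cells were transfected with a scrambled control siRNA or an siRNA against the atypical cadherin gene FAT4, using RNAiMAX, and harvested for RNA after 24 h or 48 h. Each of the 4 combinations of siRNA and time was 1 library, so no value has a replicate culture behind it, and all 4 groups share the cell line, its fusion and the transfection.

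ETS factors share a DNA-binding domain that reads a GGAA core, and they differ in partners and in whether they activate or repress. EWSR1 encodes an RNA-binding protein of the FET family. In Ewing sarcoma its amino-terminal part is joined to the DNA-binding part of FLI1, and the fusion protein turns GGAA repeats into enhancers and holds other genes down. Wild-type FLI1 is known to be little expressed in such tumours, so FLI1 reads there come largely from the fusion. Counts per gene do not separate the fusion transcript from the wild-type EWSR1 or FLI1 transcript, and every EWSR1 or FLI1 value below is the sum of both.

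Counts assigned to genes ranged from 15196813 to 22625833 per library, and the 2 control libraries were the deeper ones. FAT4 was at 165 CPM (a gene's count divided by its library's total in megacounts, after TMM scaling between libraries) in control 24 h and at 149 CPM in control 48 h. With the FAT4 siRNA it was at 71.8 CPM at 24 h and 60.2 CPM at 48 h. Of 8 genes listed as Ewing sarcoma markers, 7 were expressed, at 3735 to 4448 CPM in sum, while CD99, a defining surface marker, was listed at 0 in all 4 libraries. That 0 does not show that CD99 is not expressed: of 15 genes of the region shared by the X and Y chromosomes, looked up after CD99 was seen, 14 were listed at 0 throughout, among them SLC25A6, a mitochondrial carrier that cells in general use. Markers of blood and endothelium each summed to under 1 CPM, and those of skeletal muscle were at 0. Of the epithelial markers KRT8 and KRT18 were present, and that list summed to 158.3 to 208 CPM. KRT8 fell by 0.52 on the log2 scale with the FAT4 siRNA in the edgeR test (adjusted p = 0.00232), KRT18 had a term of 0.02, and their part in the results below was not tested. EPCAM and CDH1 were at 5 counts or fewer in any library.

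The first question was which of these transcripts differ when FAT4 is depleted, over both times. In RNA from a whole culture, fewer cells with a transcript and less of it per cell cannot be told apart. ETV5, a factor of the PEA3 group, fell to 0.567 of its control level, the largest change of any of the 10 genes. ETV1, of the same group, rose 1.26-fold, and ELK1, a partner of serum response factor, fell to 0.825 of control. EWSR1, FLI1, ETV4, ETV6, ETS1, ETS2 and GABPA did not pass the test. The edgeR quasi-likelihood test thus called 3 of 10 members, 1 as higher and 2 as lower, with adjusted p under 0.05 as the threshold. That share is near the background, since 25.9% of the 13712 genes tested were called, 11.9% as higher and 14.1% as lower. The members' median log2 fold change was 0.01, against -0.01 over all genes tested. At single times the counting interval of the ratio lay above 1 for 5 members and below 1 for 4 at 24 h, where it excluded 1 for 51.8% of genes. At 48 h it lay above for 3 and below for 4, against 55.5% of genes. Such an interval is narrower for a gene with more counts, and these shares were not matched for count. DESeq2 called 1 member, ETV5, where it called 9.07% of all genes. It gave ETS1 no adjusted p for siRNA, and genes without one count as not called in its shares. The edgeR model fitted on siRNA alone, leaving out time, called 0 genes at the adjusted threshold. At an unadjusted p under 0.05 that model passed 1706 genes, 2 of them members. The test rests on 1 residual degree of freedom and on single libraries, so its p-values do not measure the spread between cultures.

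**Figure D1:**
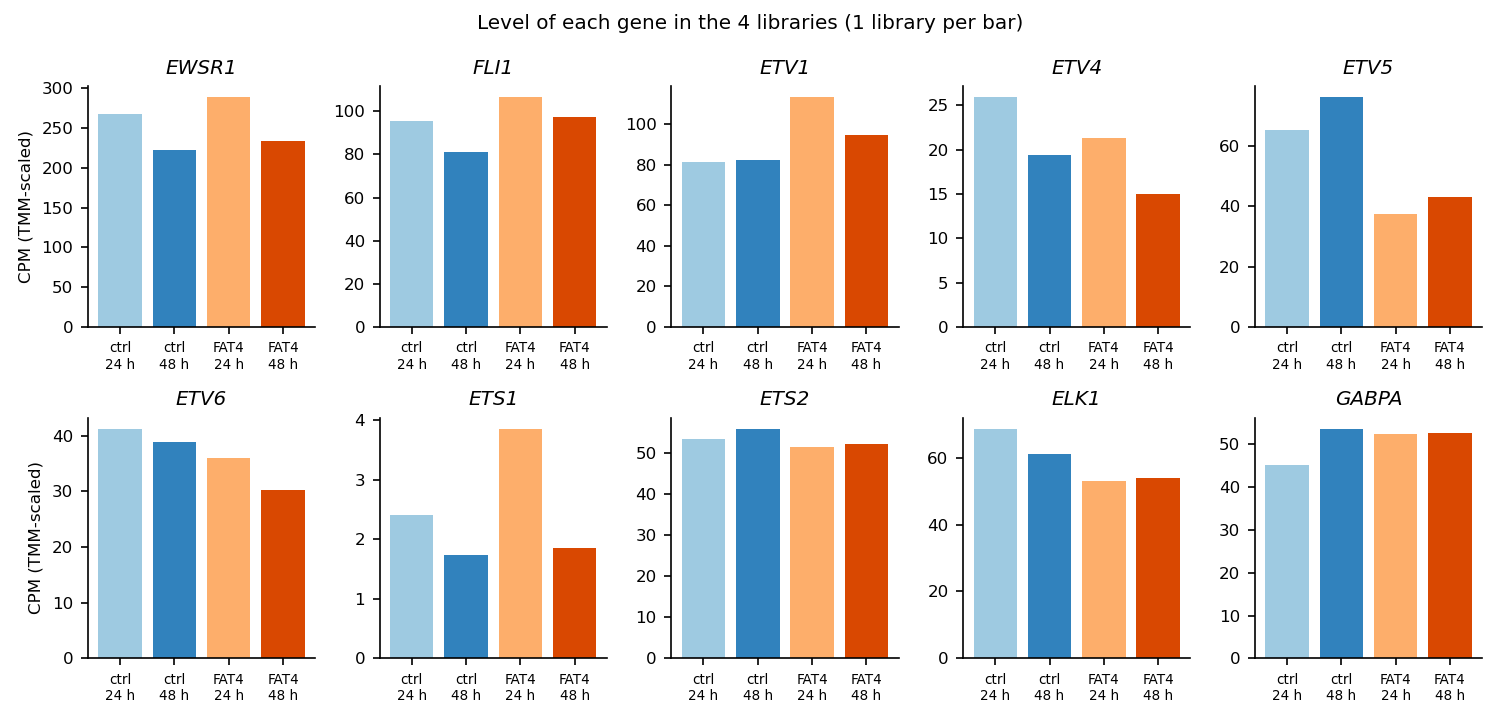
Level of each of the 10 genes, in CPM after TMM scaling on axes that start at 0, in the 4 libraries (ctrl, control siRNA; FAT4, FAT4 siRNA), 1 library per bar and no error bars. ETV5 is lower in both FAT4 siRNA libraries, ETV1 is higher in both, and ETS2 lies within 51.2 to 55.7 CPM in all 4.

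EWSR1 was the most abundant of the 10 genes. Its level was 267 CPM in control 24 h, 222 CPM in control 48 h, 288.5 CPM in FAT4 siRNA 24 h and 234 CPM in FAT4 siRNA 48 h. Both 48 h libraries lay below both 24 h libraries, and at each time the FAT4 siRNA library was slightly above its control. FAT4 siRNA over control gave a ratio of 1.08 at 24 h (95% counting interval 1.04 to 1.12) and 1.05 at 48 h (interval 1.01 to 1.10). The edgeR term of EWSR1 for siRNA was 0.09 on the log2 scale (SE 0.0897, adjusted p = 0.484), which did not pass.

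FLI1, the source of the fusion's ETS domain, ran close to EWSR1. Its level was 95.3 CPM in control 24 h, 81.2 CPM in control 48 h, 106 CPM in FAT4 siRNA 24 h and 97.2 CPM in FAT4 siRNA 48 h. The control 48 h library was the lowest and the FAT4 siRNA 24 h library the highest, and both FAT4 siRNA libraries lay above both controls. The ratio was 1.12 at 24 h (counting interval 1.05 to 1.19) and 1.197 at 48 h (interval 1.12 to 1.28). The edgeR term was 0.21 (SE 0.0972, adjusted p = 0.0974), so the difference missed the threshold, and the spread between cultures that would bear on it was not measured.

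The counts of FLI1 and EWSR1 can also be set against each other inside a library, where no scaling between libraries enters. There were 35.7 FLI1 counts per 100 EWSR1 counts in control 24 h (counting interval 33.9 to 37.5) and 36.6 in control 48 h (34.5 to 38.7). FAT4 siRNA gave 36.9 at 24 h (34.8 to 39.1) and 41.6 at 48 h (39.1 to 44.1). Only the FAT4 siRNA 48 h library stood above the others, with an interval that did not overlap those of both controls and nearly touched that of FAT4 siRNA 24 h. The transcripts differ in GC content, at 54.7% for EWSR1 and 45.5% for FLI1, and these ratios are not corrected for it. With a correction for GC content and length, the edgeR siRNA terms were 0.18 for EWSR1 (adjusted p = 0.0846) and 0.20 for FLI1 (adjusted p = 0.0781). The part of base composition in the FLI1 to EWSR1 ratio was not tested. Of the 45 pairs among the 10 genes, EWSR1 and FLI1 had the most similar pattern over the 4 libraries. Their distance was 0.17 (Euclidean, on log2(CPM + 1) values centred on each gene). Both genes receive reads of the same fusion transcript, and the part of these reads in the likeness was not tested.

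Among 10586 other genes averaging 5 CPM or more, the 3 closest to EWSR1 over the 4 libraries were ZNF235, EIF4G2 and DPY19L3, at distances of 0.01, 0.01 and 0.02. For FLI1 they were PTPN1, CCDC34 and FAN1, at 0.02, 0.03 and 0.03. With 4 libraries and so many genes, close patterns are to be found for almost any gene, and these names are a description only.

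**Figure D2:**
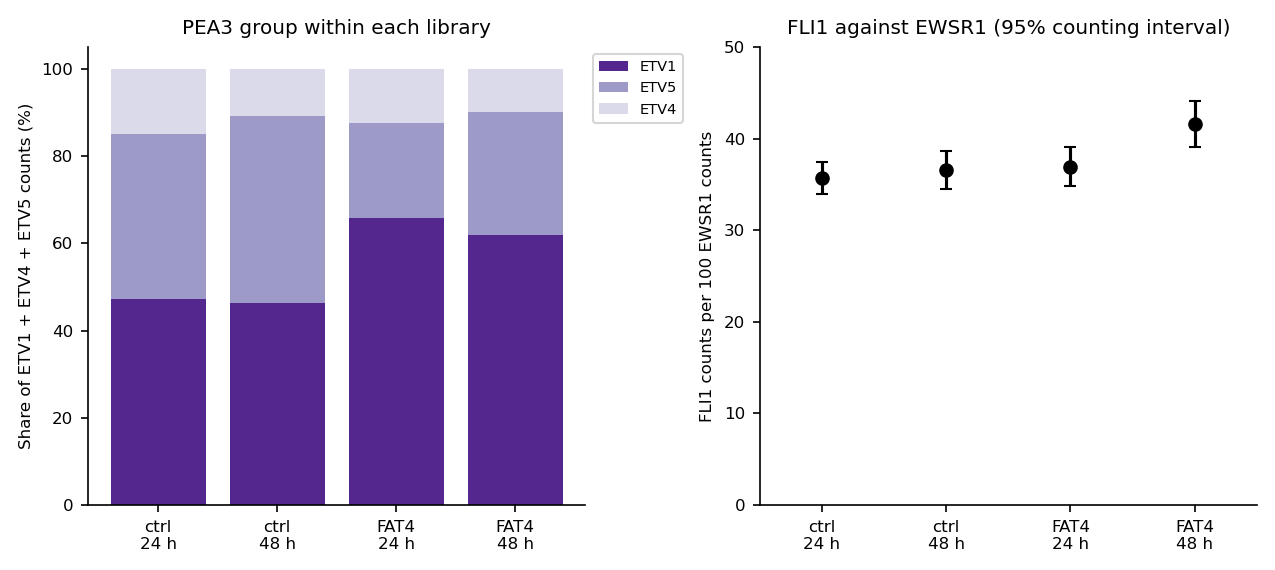
Left, counts of ETV1, ETV5 and ETV4 as stacked shares of their sum (%) in each of the 4 libraries; right, FLI1 counts per 100 EWSR1 counts with 95% counting intervals. ETV5 holds 37.9% and 42.8% of the bar in the controls and 21.7% and 28.2% with FAT4 siRNA, and FLI1 per 100 EWSR1 runs from 35.7 to 41.6.

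ETV1, ETV4 and ETV5 form the PEA3 group, activators that act downstream of receptor tyrosine kinases and the MAPK pathway and that are held down by the repressor CIC. In rare Ewing sarcomas ETV1 or ETV4 takes the place of FLI1 in the fusion. The members of the group went different ways with the FAT4 siRNA.

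ETV5 was at 65.4 CPM in control 24 h, 76.1 CPM in control 48 h, 37.3 CPM in FAT4 siRNA 24 h and 42.9 CPM in FAT4 siRNA 48 h. Both FAT4 siRNA libraries lay well below both controls, with no overlap between the siRNAs. The ratio was nearly the same at both times, 0.570 at 24 h (counting interval 0.516 to 0.629) and 0.564 at 48 h (interval 0.514 to 0.618). ETV5 fell by 0.82 on the log2 scale in the edgeR fit (SE 0.110, adjusted p = 9.77e-12), and it was lower in each pair. By fitted fold change it stood at rank 582 from the lowest of 13712 genes, whereas FAT4 stood at rank 178. On the log2(CPM + 1) scale it was the single member past 1.5-fold at either time, where 6.61% of all genes tested were past it at 24 h and 11.5% at 48 h. DESeq2 called ETV5 as well, with a log2 fold change of -0.81 and adjusted p = 6.49e-06, and with the correction for GC content and length edgeR gave -0.77 and adjusted p = 8.09e-08. Without the time term edgeR gave adjusted p = 0.182.

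The annotated gene DGKG overlaps exons of ETV5 on the same strand in GENCODE release 29, so reads in the shared stretch may be left out of both counts. DGKG was at 72.9 and 62.3 CPM in control 24 h and 48 h and at 69.97 and 60.4 CPM with FAT4 siRNA. Its siRNA term of -0.05 did not pass the edgeR test (adjusted p = 0.757).

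ETV1 was at 81.4 CPM in control 24 h, 82.4 CPM in control 48 h, 113 CPM in FAT4 siRNA 24 h and 94.4 CPM in FAT4 siRNA 48 h. Both FAT4 siRNA libraries lay above both controls, and the 24 h library was the highest. The ratio was 1.39 at 24 h (counting interval 1.30 to 1.49) and 1.15 at 48 h (interval 1.07 to 1.23). ETV1 rose by 0.34 on the log2 scale in the edgeR fit (SE 0.0976, adjusted p = 0.00428, higher in both pairs). DESeq2 did not call it (adjusted p = 0.0833). The 24 h pair alone gave a log2 ratio of 0.47 and the 48 h pair 0.19, and the difference between the times could not be tested with 1 library per siRNA and time.

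ETV4 was the least abundant of the group, at 25.9 CPM in control 24 h, 19.4 CPM in control 48 h, 21.3 CPM in FAT4 siRNA 24 h and 14.96 CPM in FAT4 siRNA 48 h. It was lower with the FAT4 siRNA at each time and lower at 48 h with each siRNA. The siRNA ratio was 0.824 at 24 h (counting interval 0.716 to 0.946) and 0.772 at 48 h (interval 0.654 to 0.910). The edgeR siRNA term was -0.32 (SE 0.141, adjusted p = 0.0727) and missed the threshold. With the correction for GC content and length it was -0.13 (adjusted p = 0.516). The gene DHX8, which overlaps ETV4 exons on the opposite strand, was at 39.4 to 40.9 CPM in all 4 libraries.

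Within a library, ETV5 held 37.9% of the summed ETV1, ETV4 and ETV5 counts in control 24 h (exact binomial interval 36.3% to 39.4%) and 42.8% in control 48 h (41.1% to 44.4%). With FAT4 siRNA it held 21.7% at 24 h (20.1% to 23.4%) and 28.2% at 48 h (26.4% to 30.04%). ETV1 held 47.1% and 46.3% in the controls, and 65.9% and 62.0% with FAT4 siRNA at 24 h and 48 h. The group's summed level was 173 CPM and 178 CPM in the controls, 172 CPM in FAT4 siRNA 24 h and 152 CPM in FAT4 siRNA 48 h. The composition of the group thus moved from ETV5 toward ETV1 at both times. Its sum in FAT4 siRNA 24 h was close to that of control 24 h, and the lowest sum was in FAT4 siRNA 48 h. The intervals cover counting error and not the spread between cultures.

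The 7-base words TTGGACT and TGGACTA were searched for in 3' UTRs. They were picked in an earlier look at the siRNA ratios of these same libraries, so the sites are a description and support nothing about the members. The sites of TTGGACT and TGGACTA in FAT4 and in the 10 genes are shown to make visible how many ETV5 holds. They were read from 1 GENCODE release 29 transcript per gene, on the sense strand and 5' to 3', with 9 bases on each side and the word in capitals, and starts are counted from the first base after the stop codon.
FAT4 at base 103: aggccagtaTGGACTAgtggtggag
FAT4 at base 833: agcttatgaTTGGACTtattttcca
ETV5 at base 361: catcgatcaTGGACTActaaatgcc
ETV5 at base 1259: ctttaaatcTTGGACTttaaaccct
ETV5 at base 2100: gcattcccaTTGGACTcatgcacct
ETV6 at base 1806: gcaaacagaTGGACTAtggttcaag
FLI1 at base 59: ctggatgctTTGGACTcaacaggac
ETV1 at base 675: ggcacaattTTGGACTctggcgcca
ETS1 at base 58: ccgtgttggTTGGACTctgaatttt

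ETV5 held 3 sites of TTGGACT or TGGACTA in a UTR of 2331 bases. Of the 12336 tested genes with a UTR of at least 50 bases, 0.875% held 3 or more. In all, 5 of the 10 genes held a site of either word, against 14.7% of those tested genes. UTRs of several members are longer than the median of 1161 bases, and the shares were not matched for UTR length. With words picked from these same ratios, neither share is evidence about the members. Of the 5 carriers, ETV5 fell and ETV1 rose. FLI1, ETV6 and ETS1 had fitted log2 fold changes of 0.21, -0.28 and 0.43 that did not pass the edgeR test. EWSR1, ETV4, ETS2, ELK1 and GABPA held none of these sites in the transcript searched. AGCCTTA, held by 10.1% of those tested genes, occurred among the 10 genes only in ETV1, at 1 site, and not in FAT4. No siRNA sequence was used here, and the part of these sites in the result was not tested.

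**Figure D3:**
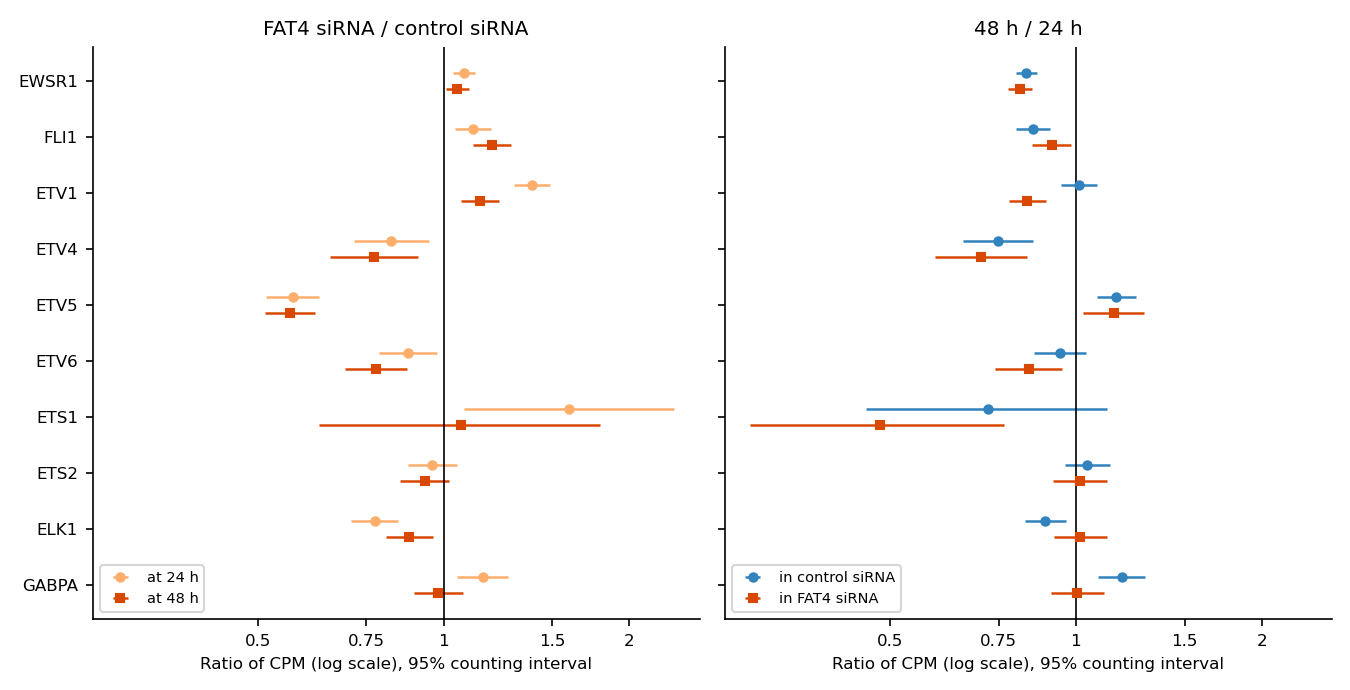
Ratios of CPM with exact 95% counting intervals on a log axis for each gene, FAT4 siRNA over control at 24 h and 48 h on the left and 48 h over 24 h in each siRNA on the right; the vertical line marks 1. The ETV5 ratios of 0.570 and 0.564 are the lowest on the left, and the intervals of ETS1 are the widest because of its few counts.

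ETV6 encodes a repressor with a pointed domain through which it forms polymers, and it is a fusion partner in leukaemia and in infantile fibrosarcoma. It was at 41.2 CPM in control 24 h, 38.9 CPM in control 48 h, 36.1 CPM in FAT4 siRNA 24 h and 30.2 CPM in FAT4 siRNA 48 h. The FAT4 siRNA libraries were the lower ones at both times, with ratios of 0.875 (counting interval 0.785 to 0.975) and 0.778 (interval 0.693 to 0.873). The edgeR siRNA term was -0.28 (SE 0.121, adjusted p = 0.0769) and missed the threshold.

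ETS1 and ETS2 are the founding pair of the family and both are phosphorylated by MAP kinases. ETS1 was near the limit of what these libraries measure, with 54 counts at 24 h and 35 at 48 h in the controls, against 57 and 29 with FAT4 siRNA. These counts stand for 2.42 and 1.74 CPM in the controls and 3.86 and 1.85 CPM with FAT4 siRNA, where 3 counts, the floor used here, are 0.133 to 0.197 CPM before TMM scaling. The siRNA ratio was 1.60 at 24 h (counting interval 1.08 to 2.36), which is under 1.5-fold once 1 CPM is added to both levels, and 1.07 at 48 h (interval 0.628 to 1.795). The edgeR siRNA term of 0.43 (SE 0.306, adjusted p = 0.316) did not pass. ETS2 was the steadiest of the 10 genes, at 53.4 CPM in control 24 h, 55.7 CPM in control 48 h, 51.2 CPM in FAT4 siRNA 24 h and 52.0 CPM in FAT4 siRNA 48 h. Its highest level was 1.09 times its lowest, all 4 counting intervals of its ratios included 1, and edgeR gave -0.08 (adjusted p = 0.640).

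ELK1 encodes a ternary complex factor that binds with serum response factor at immediate early genes and is activated by MAP kinases. It was at 68.6 CPM in control 24 h, 61.2 CPM in control 48 h, 53.1 CPM in FAT4 siRNA 24 h and 53.9 CPM in FAT4 siRNA 48 h. Both FAT4 siRNA libraries lay below both controls. The ratio was 0.773 at 24 h (counting interval 0.709 to 0.843) and 0.880 at 48 h (interval 0.805 to 0.962). ELK1 fell by 0.28 on the log2 scale in the edgeR fit (SE 0.107, adjusted p = 0.0390, lower in both pairs). That call was lost with DESeq2 (adjusted p = 0.252), with no filter on low counts in edgeR (adjusted p = 0.0617) and with the correction for GC content and length, where edgeR gave -0.15 (adjusted p = 0.247).

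GABPA, the DNA-binding subunit of the GABP complex that serves many mitochondrial and housekeeping promoters, was at 45.2 CPM in control 24 h and at 53.6 CPM in control 48 h. With FAT4 siRNA it was at 52.3 CPM at 24 h and 52.6 CPM at 48 h. The control 24 h library alone was low, and the other 3 lay between 52.3 and 53.6 CPM. The siRNA ratio was 1.16 at 24 h (counting interval 1.05 to 1.27) and 0.981 at 48 h (interval 0.895 to 1.08). The edgeR siRNA term was 0.09 (SE 0.111, adjusted p = 0.591), and with the correction for GC content and length it was -0.06.

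The siRNA ratios moved with base composition over all genes, and the members differ widely in it. The fitted siRNA log2 fold change had a median of 0.14 in the 3272 tested genes with the lowest GC content (up to 42.3%) and of -0.19 in the 3272 with the highest (above 57.2%). ETV1 and GABPA, at 38.1% and 36.4%, belong to the first of these groups and ETV4, at 60.8%, to the second. ELK1 was at 57.0%, just under that bound, and ETV5 was near the middle at 48.6%. After the correction for GC content and length, edgeR called 2 of 10 members, ETV5 as lower and ETV1 as higher (0.24, adjusted p = 0.0376), where it called 23.6% of 13088 genes. The correction also moved the split of all calls, from 45.7% higher to 55.8% higher. What part base composition has in the change of any single member was not tested beyond this correction.

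**Figure D4:**
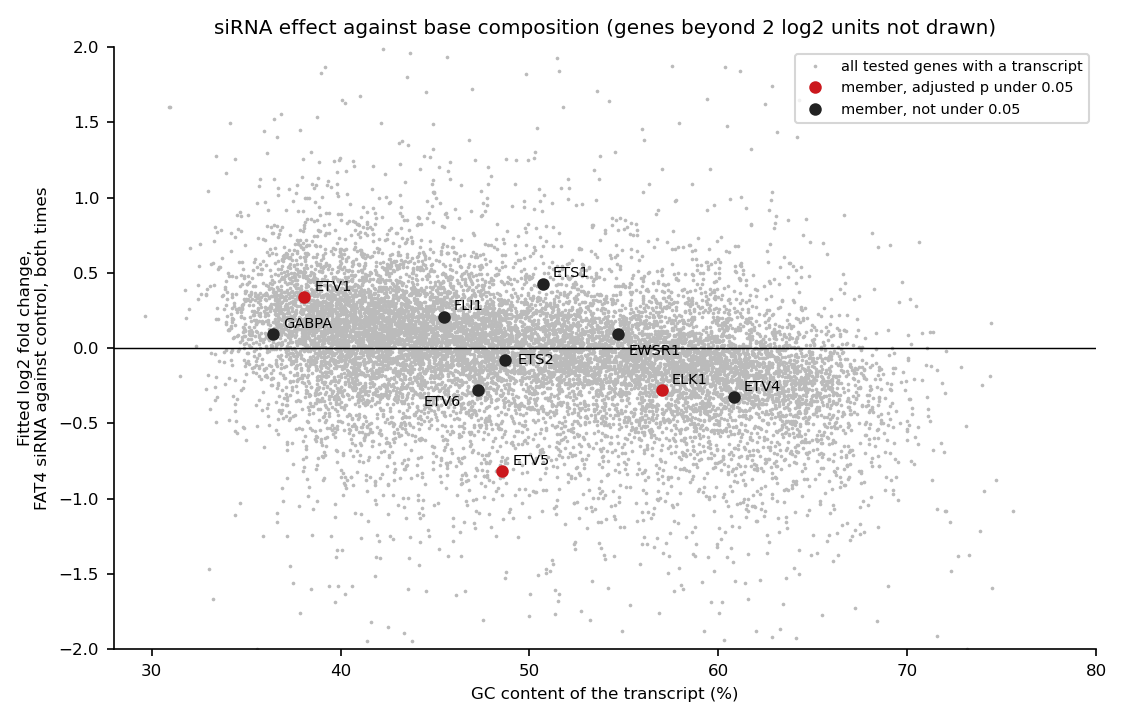
Fitted log2 fold change of FAT4 siRNA against control over both times (vertical axis) against transcript GC content in percent (horizontal axis), for tested genes with a matched transcript (grey) and the 10 members (coloured by the edgeR test). ETV5 at 48.6% GC lies at -0.82, under the bulk of genes of like GC content, while ETV1, ELK1 and ETV4 lie nearer to it.

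The second question was what changed with time after transfection. EWSR1 and ETV4 fell and no member rose. EWSR1 fell by 0.28 on the log2 scale (SE 0.0898, edgeR adjusted p = 0.00930, lower in both pairs), to 0.831 of its 24 h level in control and 0.811 in FAT4 siRNA. ETV4 fell by 0.46 (SE 0.141, edgeR adjusted p = 0.00705, lower in both pairs), to 0.749 in control and 0.702 in FAT4 siRNA. These are 2 of 10 members, both lower, where 26.6% of all genes were called and 12.8% as lower, and DESeq2 called 0 members (2 at an unadjusted p under 0.05) and 8.58% of all genes. The counting interval of the time ratio lay above 1 for 2 members and below 1 for 4 in control, where it excluded 1 for 55% of genes. In FAT4 siRNA it lay above for 1 and below for 6, against 53.3%, again with no matching for count. DESeq2 gave adjusted p = 0.0712 for EWSR1 and 0.151 for ETV4.

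The other members differed less between the times or were less certain. FLI1 had time ratios of 0.852 in control (counting interval 0.798 to 0.909) and 0.913 in FAT4 siRNA (interval 0.850 to 0.981), and edgeR gave -0.18 (adjusted p = 0.157). ETV5 went the other way, at 1.16 in control and 1.15 in FAT4 siRNA, and its edgeR term of 0.21 did not pass (adjusted p = 0.142). ETS1 had the lowest ratio, 0.481 in FAT4 siRNA (interval 0.296 to 0.765) on 57 and 29 counts, against 0.720 in control (interval 0.456 to 1.12). Its edgeR term of -0.76 lay just outside the threshold (SE 0.307, adjusted p = 0.0510). ETS1 in FAT4 siRNA was the one member value past 1.5-fold between the times, where 11.9% of genes were past it in FAT4 siRNA and 8.17% in control.

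ETV1 and GABPA had different time ratios under the 2 siRNAs. ETV1 was at 1.01 in control (counting interval 0.946 to 1.08) and 0.835 in FAT4 siRNA (interval 0.778 to 0.896). GABPA was at 1.19 in control (interval 1.09 to 1.29) and 1.005 in FAT4 siRNA (interval 0.910 to 1.11). Whether the time course differs between the siRNAs was not testable. With the correction for GC content and length edgeR called 5 members as lower at 48 h, EWSR1, ETV4, FLI1 (-0.25, adjusted p = 0.0219), ETV1 (-0.23, adjusted p = 0.0306) and ETS1 (-0.80, adjusted p = 0.0350), where it called 33.1% of genes. The time comparison is sensitive to scaling as a whole. Of the genes called, 51.9% were higher at 48 h, against 66.3% with scaling by total count and 33.7% with the correction for GC content and length. EWSR1 and ETV4 were called as lower by edgeR under these 3 scalings.

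Per length of transcript the 10 genes spanned about 2 orders of magnitude. On the scale of CPM per kilobase of the matched transcript, EWSR1 led at a mean of 116 (101.5 to 132 over the 4 libraries) and ETS1 was last at 1.11 (0.780 to 1.73). FLI1 at 23.0 (19.7 to 25.8) and ELK1 at 22.0 (19.7 to 25.5) followed EWSR1 and overlapped each other. FLI1 was below ELK1 in both controls and above it with FAT4 siRNA at both times. ETV1 at 13.8, ETS2 at 13.5 and ETV5 at 13.5 could not be ordered, since the range of ETV5 (9.07 to 18.5) covered the other two. GABPA at 9.94 and ETV4 at 8.39 overlapped, and so did ETV4 (6.16 to 10.7) and ETV6 at 6.11 (5.05 to 6.88). Within each library, however, ETV4 was above ETV6. EWSR1, ETS1 and the pair of FLI1 and ELK1 each stood clear of their neighbours. The lengths are those of the full wild-type transcripts, so the fusion's shorter stretch of FLI1 is not reflected in them.

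The human genome holds 28 ETS genes, all present in the files, and 19 of them were tested. The other 9 were hardly detected. ERG, which replaces FLI1 in some Ewing sarcomas, ELF5 and SPIC had 0 counts in all 4 libraries, where 3 counts would be 0.133 to 0.197 CPM, and the highest count of the remaining 6 was 8. FEV, another rare fusion partner, had 56 counts at 24 h and 27 at 48 h in the controls, and 26 and 9 with FAT4 siRNA. The repressor ERF was the most abundant ETS gene by CPM, at a mean of 112 CPM against 95.1 CPM for FLI1.

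**Figure D5:**
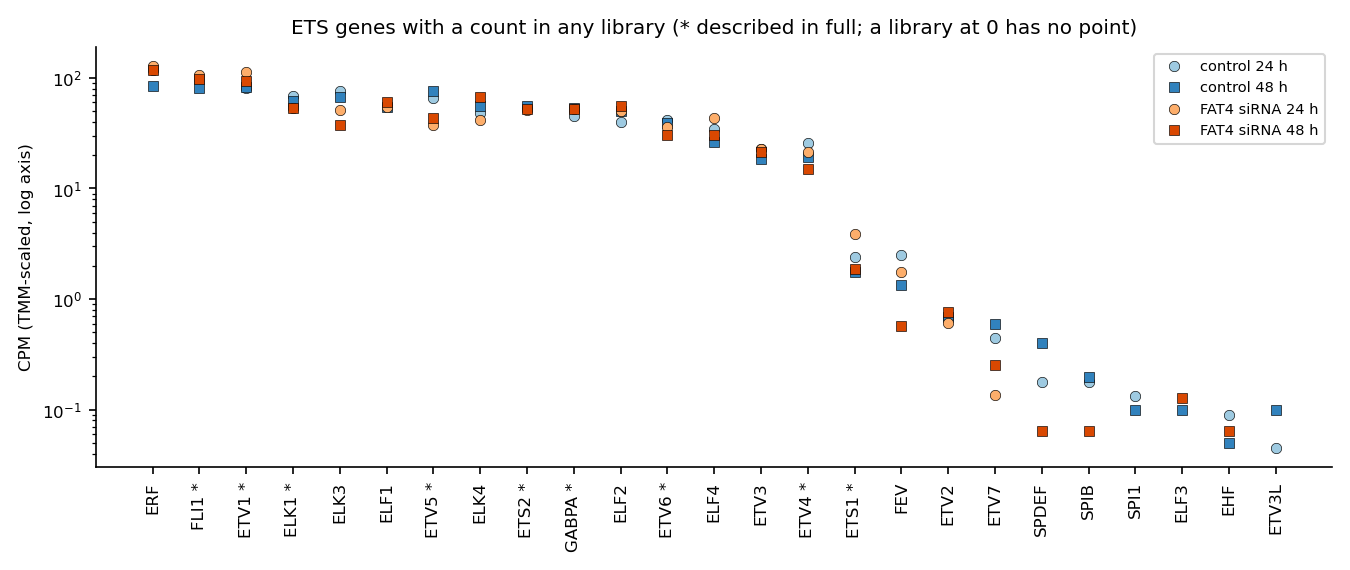
CPM of the 25 ETS genes with a count in any library, on a log axis, ordered by mean level, with 1 point per library; an asterisk marks the genes described in full and a library at 0 has no point. ERF, FLI1 and ETV1 lead, the genes down to ETV4 lie at or above 14.96 CPM in every library, and ETS1 and the 9 genes after it lie below 5 CPM.

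Beyond the members, ELK3 and ERF were called by the siRNA term, so that 2 of 19 ETS genes rose and 3 fell, with a median log2 fold change of 0.03. Over all genes tested, edgeR called 11.9% as higher and 14.1% as lower. DESeq2 called 0 of the 19 as higher and 2 as lower, and 9.07% of all genes in either direction. ELK3, a ternary complex factor like ELK1, fell by 0.69 (SE 0.108, edgeR adjusted p = 1.07e-08), with 51.6 against 76.35 CPM in control at 24 h and 37.7 against 66.5 CPM at 48 h. ERF rose by 0.30 (SE 0.0957, edgeR adjusted p = 0.00884), with 128 against 117 CPM in control at 24 h and 119 against 84.5 CPM at 48 h. ELK4, the third ternary complex factor, had a siRNA term of 0.03 and did not pass (edgeR adjusted p = 0.887). With time, ELK4 rose by 0.45 and ETV4, ERF, ELK3, ELF4 and FEV fell, 1 higher and 5 lower of 19 by edgeR (2 higher and 6 lower at an unadjusted p under 0.05), where 26.6% of all genes tested were called. DESeq2 called 0 of the 19 with time, against 8.58% of all genes. The correction for GC content and length gave 1 higher and 8 lower, where it called 33.1% of genes. In the time comparison ELF4 fell by 0.47 and FEV fell by 1.14 on the log2 scale, the latter on few counts.

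Among partners and regulators of these factors, 2 of 14 tested genes rose with the FAT4 siRNA and 2 fell by edgeR, with a median of -0.0024. The shares over all genes tested were 11.9% higher and 14.1% lower. DESeq2 called 0 as higher and 1 as lower, where it called 9.07% of all genes. TAF15, of the same family as EWSR1, had a term of 0.16 and did not pass (edgeR adjusted p = 0.244). CIC, the repressor of the PEA3 group, fell by 0.27 (edgeR adjusted p = 0.0250), with 105 against 129 CPM in control at 24 h and 99.3 against 117 CPM at 48 h. DET1, part of the ubiquitin ligase that degrades PEA3 factors, rose by 0.63 (edgeR adjusted p = 0.00136), mostly at 48 h, from 9.84 to 18.9 CPM. RFWD2, the ligase COP1 of the same complex, had a term of 0.01. GABPB2, a partner of GABPA, rose by 0.51 (edgeR adjusted p = 0.0192), whereas GABPB1 had a term of 0.25 and did not pass (adjusted p = 0.0891).

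Of 16 genes that MAPK signalling and PEA3 factors are known to raise, 5 rose and 2 fell with the FAT4 siRNA by edgeR, with a median of 0.14. Over all genes tested, 11.9% were called as higher and 14.1% as lower. With the correction for GC content and length 8 rose and 1 fell, where 23.6% of genes were called. DESeq2 called 1 as higher and 0 as lower, against 9.07% of all genes. EGR1 rose by 0.83, PHLDA1 by 0.64 and FOSL1 by 0.53, while DUSP4 fell by 0.52 and SPRY4 by 0.35. CCND1 rose by 0.24. DUSP6, the ERK phosphatase most often read as a marker of this pathway, had a term of 0.22 and just missed the threshold (edgeR adjusted p = 0.0535). The part of the lower ETV5 in the changes of this list was not tested. EGR1 was at 32.6 and 40.3 CPM in control and FAT4 siRNA at 24 h and at 44.6 and 110 CPM at 48 h, so most of its difference lay in 1 library. Of 10 targets of serum response factor and ELK1, EGR1 was the 1 that rose and 0 fell by edgeR (2 higher and 0 lower at an unadjusted p under 0.05, 0 called by DESeq2), with a median of 0.14. Of 8 targets of GABPA, edgeR called 0 (1 higher at an unadjusted p under 0.05, 0 called by DESeq2), with a median of 0.01.

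Genes that the fusion is known to activate went both ways, 4 of 20 higher and 7 lower by edgeR, with a median of 0.01. By DESeq2 1 was higher and 4 were lower. Over all genes tested, edgeR called 11.9% as higher and 14.1% as lower, and DESeq2 called 9.07% in either direction. CAV1 rose by 0.53, GLI1 by 0.45 and LIPI by 0.31, while NKX2-2, a transcription factor needed for growth of these tumours, fell by 0.85, GSTM4 by 0.56 and PPP1R1A by 0.52. GLI1 was lower with FAT4 siRNA at 24 h, at 9.27 against 10.9 CPM, and higher at 48 h, at 24.1 against 11.7 CPM. Of 12 genes that the fusion is known to repress, 8 rose and 0 fell by edgeR (9 higher and 0 lower at an unadjusted p under 0.05, 5 higher by DESeq2), with a median of 0.88. CTGF rose by 1.93, DKK1 by 1.801 and IGFBP3 by 1.71, and at the lower end CDKN1A rose by 0.49 and LOX by 0.63. DKK1 and IGFBP3 rest on few counts, 5 to 54 and 3 to 27 per library. CTGF, CYR61, NT5E and IGFBP3 were known to be higher in these libraries when the list was written, so its count is no independent evidence. EWSR1 and FLI1, whose counts sum the fusion and wild-type transcripts, had siRNA terms of 0.09 and 0.21 that did not pass the edgeR test. The fusion itself was not measured, and its part in the changes of these lists was not tested.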

How the data were processed

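The authors deposited whole-number read counts per gene, 1 file per library, per the file contents. Per the submitters' processing notes the tools included HTSeq, TopHat2, SAMtools and CASAVA 1.8.2, on the build hg19, with no roles or settings given. Libraries were made with a stranded mRNA kit, per the labels' protocols. Annotation, counting mode and strand setting: not given in the sources used here. Therefore counts of genes that overlap others (EWSR1, FLI1, ETV4, ETV5 and GABPA share exons with another gene in GENCODE release 29) or have a processed pseudogene (ELK1, GABPA) are uncertain. The 5 counter entries that name no gene stayed out of library sizes; reads outside genes were 19.48% to 20.54% of assignable reads.

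The main test used edgeR 4.0.16 (R 4.3.3), TMM scaling and the filterByExpr filter (minimum count 10, total 15), which kept 13712 genes. Its quasi-likelihood model had additive terms for siRNA and time, fitted on all 4 libraries and tested two-sided. P-values were adjusted by Benjamini-Hochberg over all genes, with a threshold of 0.05. With 1 residual degree of freedom, the estimated prior ones were infinite, so genes shared 1 dispersion trend. Per time or siRNA, CPM ratios carry exact 95% Clopper-Pearson intervals that cover counting error only, and fold thresholds of 1.5 and the single-pair values use log2(CPM + 1), which understates low genes. Alternatives were DESeq2 1.42.0, total count scaling, no filter, a mean of at least 5 CPM, no second term, each pair left out, a pseudocount of 0.1 CPM, and edgeR offsets from splines of transcript GC content and length (5 and 4 degrees of freedom). GENCODE release 29, used for length, GC content, overlaps and UTRs, is on a later build than hg19, and coordinates are therefore left out. It gave a transcript for 95.4% of tested genes. The fit was also tested on simulated data with changes by siRNA only and the same dispersion for all genes. That run says nothing about the spread between cultures or about base composition.

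Named genes were all 10 members, FAT4, the 3 nearest patterns to EWSR1 and FLI1, and the called members of 7 lists, or above 6 of them the 3 highest and 3 lowest. Values of genes not called, the overlapping genes and GLI1 and EGR1 per library were chosen after they were seen. The members and lists were chosen with earlier results of these data known. Some called genes of the lists are counted but not reported here by name.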

Additional observations from a re-analysis of the deposited data

How the results depend on the processing

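The labels carry no replicate numbers, so no block beyond siRNA and time could be fitted, and the additive model already compares the siRNAs within each time. The additive fit called 3555 genes for siRNA and 3646 for time. DESeq2 called 1244 and 1176, and fits without the other term called 0 and 50. Of the 10 members, DESeq2 called 1 for siRNA and 0 for time, and the fits without the other term called 0 and 0, with 2 and 0 members at an unadjusted p under 0.05. The correction for GC content and length called 5 members for time. GABPA turned to -0.063 for siRNA and to -0.0015 for time with that correction, and ETS2 to -0.012 for time, all from values that had not passed the test. With a pseudocount of 0.1 CPM, the genes at least 1.5-fold apart numbered 1847 at 24 h and 2420 at 48 h between the siRNAs, against 906 and 1574. Between the times they numbered 1972 in control and 2573 in FAT4 siRNA, against 1120 and 1633. ETV5 was called for siRNA in each alternative with a test except the fit without the time term. The cause of these differences was not tested. The depth limits ETS1, at 29 to 57 counts, where ratios carry intervals of more than 2-fold. Leaving out a pair of libraries turned the direction of no called member.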
